A study of Danio rerio with 16 samples.

Results

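Among cells sorted from zebrafish embryos for a neutrophil reporter, 203 of 7599 cells were low in lyz and in macrophage genes and carried at least 2 of 5 genes by which they were picked as blood stem and progenitor-like. A barcode counted as a cell with at least 1000 unique molecular identifiers (UMIs, each a captured mRNA molecule), 300 to 7500 genes and at most 10% of UMIs from mitochondrial genes. Members also had lyz (lysozyme, a neutrophil granule gene) under 1% of their UMIs and at most 2 UMIs over 6 macrophage genes. They were then kept where at least 2 of the 5 genes blf, tcf15, angpt1, znfl2a and spi2 had a UMI. The members are described against 4042 neutrophils (lyz at 1% or more of UMIs) and against 3354 remaining cells. The remaining cells were 1825 macrophages (over 2 macrophage UMIs) and 1529 other cells. Because these genes chose the members, their levels and those of every other gene in members against the rest are a description and were not tested.

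The study asked how neutrophils of the rostral blood island (RBI) and of the caudal hematopoietic tissue (CHT) differ at steady state and after injury. All embryos were Tg(mpx:Dendra2), in which the mpx promoter (mpx encodes myeloperoxidase) drives the photoconvertible protein Dendra2, and their heads were photoconverted at 34 and 44 hpf. The cut embryos also had the caudal fin transected at 54 hpf, whereas the normal embryos did not, and cells of many pooled whole embryos were sorted by colour and captured with 10x Genomics 3' chemistry. The 4 libraries were KBTGR cut, KBTGR normal, KBTRE cut and KBTRE normal, read here from their letters as green (CHT-derived) for KBTGR and red (RBI-derived) for KBTRE. The labels call all of these cells neutrophils, yet cells with macrophage genes and with genes of other tissues were also among the barcodes. Each library was registered as 4 samples that share 1 matrix, so no condition had a replicate that could be told apart. All intervals given are therefore 95% intervals of counting error only, and differences between embryos or libraries are not covered by them.

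In zebrafish embryos, hematopoietic stem cells bud from the floor of the dorsal aorta and seed the CHT, a niche in the tail that serves as the mammalian fetal liver does. Erythro-myeloid progenitors also form there, and both kinds of progenitor divide and give red cells, thrombocytes and leukocytes. The transcription factors Myb, Tal1, Lmo2, Gata2b and Runx1 act in these cells, and lineages then separate as Gata1 and Pu.1 (spi1b) take over in erythroid and myeloid cells.

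Members were found almost only in the KBTGR libraries. They were 112 of 2925 cells in KBTGR cut (3.83%, exact interval 3.16 to 4.59%) and 85 of 1849 cells in KBTGR normal (4.60%, 3.69 to 5.65%). In KBTRE cut they were 3 of 1629 cells (0.184%, 0.0380 to 0.537%), and in KBTRE normal 3 of 1196 cells (0.251%, 0.0518 to 0.731%). The share in KBTGR was thus 20.8-fold (6.93 to 102) that in KBTRE among cut libraries and 18.3-fold (6.06 to 90.6) among normal libraries. Between cut and normal KBTGR the shares did not differ beyond counting error, with a ratio of 0.833 (0.623 to 1.12). Of the cells that were neither neutrophil nor macrophage, members made up 14.9% and 13.6% in KBTGR cut and normal, and 1.86% and 1.54% in KBTRE cut and normal. By these shares KBTGR was 7.99-fold (2.67 to 39.3) KBTRE among cut and 8.85-fold (2.93 to 43.8) among normal libraries.

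**Figure D1:**
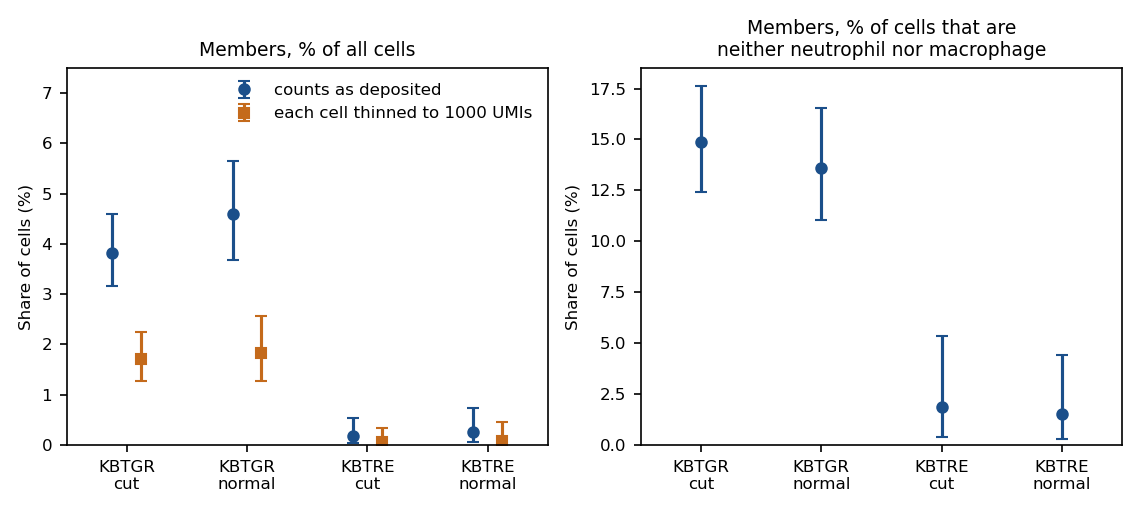
Share of cells that met the rule in each library (y axis, percent) as points with exact 95% binomial intervals, of all cells on the left and of cells that are neither neutrophil nor macrophage on the right. Squares on the left give the share after every cell was thinned to 1000 UMIs, which was 1.71% in KBTGR cut and 1.84% in KBTGR normal. Both KBTGR libraries lie above both KBTRE libraries in every panel.

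A rule that asks for UMIs favours deep cells, and members were deep. Their median was 6734.5 UMIs in KBTGR cut and 11675 UMIs in KBTGR normal, against 4105 and 8900 UMIs in neutrophils and 2072 and 3367 UMIs in the other cells. When each cell was first thinned to 1000 UMIs, 50 of 2925 KBTGR cut and 34 of 1849 KBTGR normal cells met the rule, against 1 of 1629 KBTRE cut and 1 of 1196 KBTRE normal cells. The ratio of thinned shares between KBTGR cut and normal was 0.930 (0.589 to 1.48). In the 2 KBTGR libraries, of the cells within the lyz and macrophage limits 1043 had none of the 5 genes, 136 had 1, 71 had 2, 64 had 3, 39 had 4 and 23 had all 5. Just outside the threshold, the cells with 1 gene held 133 CPM of blf (CPM, the gene's part of all UMIs summed over the cells of a class), 64.6 CPM of myb and 43.5 CPM of lmo2. Just inside it, the cells with 2 genes held 847 CPM of blf, 250 CPM of myb and 97.2 CPM of lmo2. These pooled values hide a difference between the libraries. From 1 to 2 genes, myb went from 121 to 199 CPM in KBTGR cut and from 14.9 to 295 CPM in KBTGR normal. lmo2 went from 70.4 to 122 CPM in cut and from 19.8 to 75.3 CPM in normal, and blf from 256 to 542 CPM and from 24.8 to 1117 CPM. The step was thus smaller in KBTGR cut. As blf is a rule gene, its step is in part set by the threshold. The median depth of these 2 sets was 4038 UMIs with 1 gene and 7858 UMIs with 2 genes.

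Of the 197 KBTGR members, 126 carried 3 or more of the 5 rule genes. blf, a zinc finger gene known from zebrafish blood formation, had 1098 UMIs in 84 of 112 KBTGR cut members and 1384 UMIs in 58 of 85 KBTGR normal members. This was 1446 and 1424 CPM in cut and normal members, against 16.9 and 2.32 CPM in neutrophils of the same libraries. tcf15 (paraxis), a helix-loop-helix factor best known from somites, had 739 CPM in cut and 637 CPM in normal members, in 82 and 61 cells. Both genes lay far above every other class of cell in both libraries. The gaps of all 5 rule genes are in part set by the rule, which chose members by their UMIs. angpt1, which encodes the angiopoietin ligand of the Tie2 receptor, had 180 and 224 CPM in cut and normal members, against 4.56 and 5.96 CPM in macrophages. znfl2a, another zinc finger gene, had 259 and 285 CPM in members of the cut and normal library, against 6.12 and 5.51 CPM in the other cells. spi2 had 158 and 191 CPM in cut and normal members, and in KBTGR normal none of the 1089 remaining cells had a UMI of it, so that it was at least 494-fold higher in members against a floor of 3 counts over the group. Of these members, 95 had both blf and tcf15, 93 both blf and znfl2a, 90 both tcf15 and angpt1, and 44 both znfl2a and spi2. pmp22b, a myelin and epithelial membrane protein gene that the rule did not use, had 448 and 447 CPM in cut and normal members, against 104 and 87.7 CPM in the other cells.

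**Figure D2:**
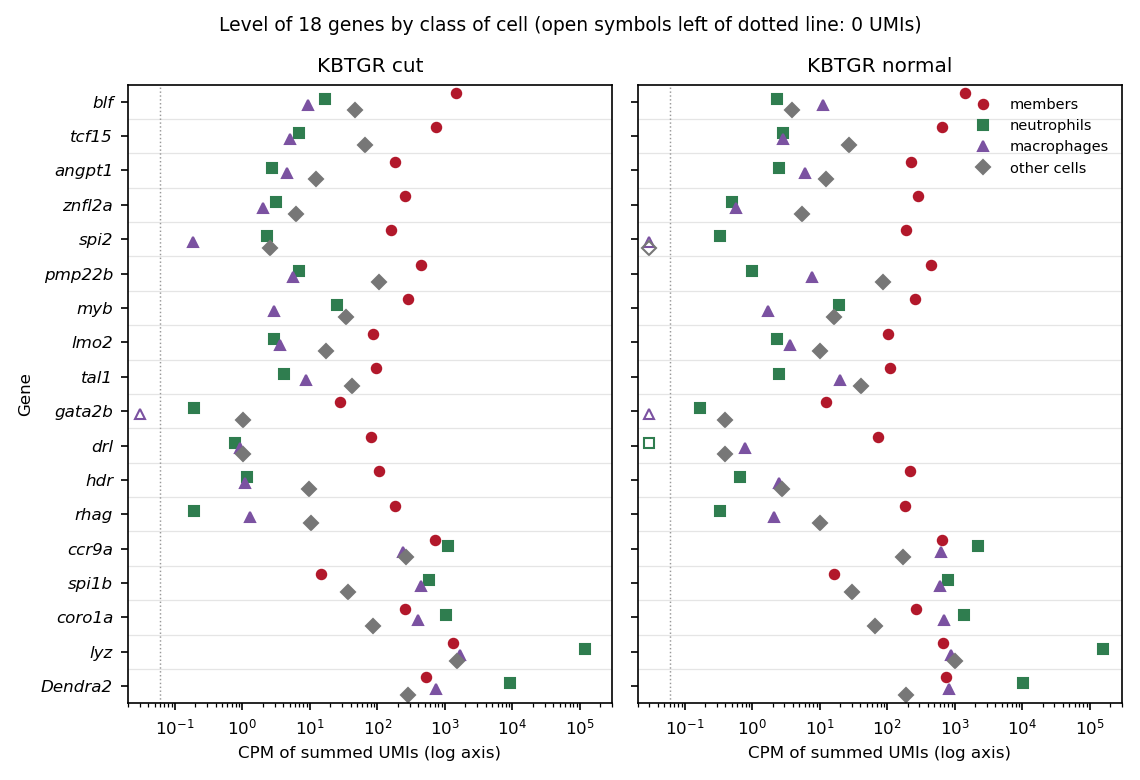
Level of 18 genes (x axis, CPM of summed UMIs on a log axis) in members, neutrophils, macrophages and other cells of KBTGR cut (left) and KBTGR normal (right), with open symbols left of the dotted line where no UMI was counted. The rule genes, myb, lmo2, tal1, gata2b, drl, hdr and rhag are highest in members in both libraries, whereas lyz and Dendra2 are highest in neutrophils.

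In droplets with 10 to 100 UMIs, which hold free RNA, blf was at 85.9 CPM in KBTGR cut and 66.6 CPM in KBTGR normal, and znfl2a at 19.6 and 14.2 CPM, below the members. Every KBTGR member had a UMI of lyz, at 1312 CPM in cut and 678 CPM in normal members, against 1662 and 882 CPM in macrophages and 1517 and 1015 CPM in the other cells. This was 3.80% and 1.08% of the lyz level of the droplets in the cut and normal library. Doublet scores were simulated by adding pairs of cells. In each library a set share of cells with the top scores, 0.8% for each 1000 cells, was taken as high. This number, fixed by the count of cells, came to 127 in the series. Of these cells 4 were members, all in KBTGR normal. In all, 25 barcodes of cells occurred in more than 1 library, and 0 of them were members.

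The name of these cells was checked with 19 blood stem and progenitor genes. A gene was called here where the sums over cells differed by more than 2-fold, the counting interval of the ratio excluded no difference and at least 50 UMIs were counted over both sums. Of all genes tested against the remaining cells, 13.6% were called higher and 30.5% lower in KBTGR cut members (44.1% in all), and 10.3% higher and 32.7% lower in KBTGR normal members (43% in all). Of the list, 4 of 13 tested genes were higher and 4 lower in KBTGR cut (median log2 ratio -0.11, against -0.26 over all 8326 genes), and 6 of 15 higher and 4 lower in KBTGR normal (0.06, against -0.32 over 9264 genes). Over neutrophils, 4 of 12 tested genes of the list were higher and 4 lower in KBTGR cut, and 6 of 13 higher and 5 lower in KBTGR normal. Of all genes tested against neutrophils, 25.7% were higher and 27% lower in KBTGR cut, and 32.2% higher and 24% lower in KBTGR normal. After each cell was thinned to 1000 UMIs, 67.9% of cut and 65.9% of normal members had a UMI of the list, against 90.4% and 93.8% of neutrophils, 85.7% and 84.4% of macrophages and 32.5% and 35.4% of the other cells. The list as a whole was therefore less often detected in members than in neutrophils and macrophages, and its genes went both ways. It also holds genes of leukocytes and myeloid cells, namely spi1b, csf3r, ptprc, coro1a and cebpa. Detection of the list as a whole therefore does not part progenitors from those cells. The name of these cells rests on the rule genes and on single genes of the list.

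The genes of the list called higher over the remaining cells are given first. myb, required for definitive blood stem cells, had 218 UMIs in 71 cut members and 249 UMIs in 61 normal members. This was 287 and 256 CPM, or 25.8-fold (19.9 to 33.6) and 39.7-fold (29.2 to 54.9) the level of the remaining cells in cut and normal libraries. lmo2, a bridging factor of the blood and endothelial transcription complex, was at 85.6 CPM in 35 cut members and 103 CPM in 41 normal members, 11.8-fold and 17.7-fold the remaining cells. Its DNA-binding partner tal1 was at 94.8 and 110 CPM in cut and normal members, 5.48-fold and 4.12-fold the remaining cells, with 41.3 and 40.5 CPM in the other cells, and its log2 ratio in KBTGR normal was -0.20 after thinning. hhex, a homeobox gene of early blood and endothelium, was 3.16-fold and 2.15-fold higher than in the remaining cells of the cut and normal libraries, yet lower than in neutrophils (76.4 and 30.9 CPM in cut and normal members, 151 and 102 CPM in neutrophils). ikzf1 (Ikaros, a lymphoid regulator) was called only in KBTGR normal, at 5.98-fold. Some genes named here were outside the rule for named genes and were chosen after their values were seen: lmo2, gata2b, gfi1aa, runx1, kita, itga2b, spi1b, hhex, slc4a1a, gata1a, gata1b, klf1, runx3, ackr3a, plk2b, urod, alad, cahz, hbbe1.1, id4, ptprc, csf3r, gata2a, angpt2a, angpt2b, cxcl12a and the endothelial markers at 0. gata2b, which in zebrafish marks hemogenic endothelium and its progeny, had few UMIs but hardly any outside the members, with 21 UMIs in 15 cut and 12 UMIs in 9 normal members, against 2 and 1 UMIs in the remaining cells. gfi1aa, a repressor used as blood cells form, had 34 UMIs in 10 cut members and 57 UMIs in 6 normal members, so its level came from few cells.

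Other genes of stem cells were at or near the limit of detection. runx1, needed for stem cells to emerge, had 5 UMIs in KBTGR cut and 7 UMIs in KBTGR normal members, at 6.59 and 7.20 CPM. itga2b (CD41) had 0 and 7 UMIs and kita (a stem cell factor receptor) 4 and 1 UMIs in cut and normal members. The myeloid master regulator spi1b was lower, at 14.5 and 16.5 CPM in cut and normal members, against 589 and 798 CPM in neutrophils. The leukocyte phosphatase gene ptprc (CD45) was at 86.9 and 68.9 CPM in cut and normal members, against 402 and 455 CPM in neutrophils. csf3r, the receptor gene of granulocyte colony-stimulating factor, and gata2a were also called lower in both libraries. Over the 48 hox genes of the annotation the KBTGR members held 31 UMIs, with at most 5 for a gene, against 2777 UMIs in the remaining cells.

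Further zebrafish blood genes were among the genes with the highest ratio over the remaining cells. drl (draculin, a zinc finger gene of lateral mesoderm and blood) had 60 UMIs in 30 cut and 70 UMIs in 20 normal members, 84.1-fold and 111-fold the remaining cells of the cut and normal libraries. Its relative drll.2 was 28.9-fold and 419-fold higher. hdr, a zebrafish death receptor gene named for its part in blood formation, was at 105 CPM in cut and 216 CPM in normal members, against 1.17 and 0.664 CPM in neutrophils. si:ch73-299h12.2, with no function known here, was 71.9-fold and 717-fold higher in cut and normal members. adcyap1r1a, a receptor gene for the neuropeptide PACAP whose symbol covers more than 1 identifier, was 42.2-fold and 40.9-fold higher. dachb, mafa and smchd1, which encode nuclear regulators, lay between 16.9-fold and 21.7-fold. At the other end stood muscle and macrophage genes: myl1, a muscle myosin light chain gene, had 0 and 3 UMIs in cut and normal members, and the chemokine gene ccl34a.4 was at 42.1 and 8.23 CPM, against 5170 and 3127 CPM in macrophages. cd7al was found in 58 cut and 51 normal members and in few of the remaining cells, yet neutrophils held more of it (223 and 214 CPM in cut and normal members, 547 and 668 CPM in neutrophils).

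Markers of 15 lists of other tissues were checked because the members were named by few genes. These covered endothelium, mural cells, niche stroma, somite and sclerotome, fin fold, muscle, cartilage, neural cells, neural crest, epidermis, notochord, kidney and gut, tailbud and lateral plate. Of their genes, 3 of 85 tested were called higher over the remaining cells and 78 lower in KBTGR cut, and 3 of 111 higher and 103 lower in KBTGR normal. Over all genes, 13.6% were called higher and 30.5% lower in KBTGR cut, and 10.3% and 32.7% in KBTGR normal. The remaining cells held cells of such tissues, with clusters led by muscle, epidermal and endothelial genes. A marker could also pass the UMI minimum through those cells alone. Lower calls would thus arise for any class not of that tissue, and their number does not identify the members. Of the 211 listed genes, 96 had 0 UMIs in KBTGR members, which does not rest on the remaining cells. The 3 genes called higher were the same in both libraries. fli1a, an ETS factor of endothelium and blood, had 150 and 152 CPM in cut and normal members, against 110 and 96.8 CPM in neutrophils. jam2a, an adhesion gene of the niche list, had 20 and 23 UMIs in cut and normal members. myh11a, a smooth muscle myosin gene, had 36.9 and 31.9 CPM in cut and normal members, less than the 93.7 and 130 CPM of neutrophils. The defining markers of endothelium kdrl, cdh5, sox18, flt1, lyve1b and stab1 had 0 UMIs in all KBTGR members, and cxcl12a, the chemokine gene of niche stroma, had 0 and 1 UMIs. The summed level of the endothelial list was 166 and 168 CPM in cut and normal members, of which fli1a made up nearly all. The 11 muscle genes tested were all lower, which has the same limit, as the remaining cells held muscle cells. The somite and sclerotome list, in which tcf15 has its best known role, summed to 10.5 and 18.5 CPM in cut and normal members, against 169 and 282 CPM in the other cells.

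Of the 13-gene angiopoietin and Tie list, the ligand gene angpt1 was one of the genes that chose the members. The receptor genes tek (Tie2) and tie1 had 2 and 4 UMIs for tek and 4 and 1 UMIs for tie1 in cut and normal members, and angpt2a and angpt2b had 0. Among the partners of tcf15, the E protein gene tcf3b was at 68.5 and 51.4 CPM in cut and normal members, 3.52-fold and 2.08-fold the remaining cells, though its log2 ratio in KBTGR normal was -0.23 after thinning. Among the inhibitors of such factors, id1 was lower, at 18.4 and 45.3 CPM in cut and normal members, against 1002 and 1040 CPM in the other cells. In the members id4 had 2 and 1 UMIs, whereas id2a, also such an inhibitor, had 119 and 56 UMIs in cut and normal members. hey2, a Notch target, had 28 UMIs in 8 cut and 60 UMIs in 11 normal members, whereas of the tested Notch genes 0 were higher and 6 lower of 13 in KBTGR cut, and 2 higher and 11 lower of 17 in KBTGR normal, against 30.5% and 32.7% of all genes called lower in the cut and normal library. dusp6, which encodes a phosphatase induced by FGF signals, was 2.13-fold and 2.01-fold the remaining cells in cut and normal members, and spry2, a feedback inhibitor, 2.06-fold and 2.22-fold, with a log2 ratio of -0.11 in KBTGR cut after thinning.

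Members were rich in genes of DNA replication. Of 28 S phase genes, 23 of 24 tested were called higher over the remaining cells in KBTGR cut (median log2 ratio 2.01) and 27 of 28 in KBTGR normal (1.61), and none was lower. pcna, the sliding clamp of DNA polymerase, was at 481 and 719 CPM in cut and normal members, against 112 and 129 CPM in neutrophils. Of the G2 and M phase genes 26 of 28 were higher in KBTGR cut and 23 of 29 in KBTGR normal, among them mki67 at 141 and 182 CPM in cut and normal members, against 32.8 and 40.0 CPM in neutrophils. After each cell was thinned to 1000 UMIs, 75.0% of cut and 82.4% of normal members still had a UMI of an S phase gene, against 34.3% and 27.9% of neutrophils and 38.1% and 40.3% of the other cells. Before thinning the shares were 88.4% and 98.8% of cut and normal members, against 62.8% and 72.7% of neutrophils and 53.3% and 59.2% of the other cells. The median was 2 and 3 such UMIs per thinned member of the cut and normal library, and 0 per neutrophil, macrophage and other cell. By mean the gap to the other cells was smaller, as part of them held many such UMIs. The thinned S phase mean was 2.51 and 3.54 UMIs in cut and normal members and 1.56 and 1.89 UMIs in the other cells. In neutrophils it was 0.518 and 0.514 UMIs, and in macrophages 0.390 and 0.647 UMIs. The G2 and M phase list differed less at equal depth. Its thinned median was 8.5 and 9 UMIs in cut and normal members, against 4 and 3 UMIs in neutrophils and 5 UMIs in the other cells of each library. Its thinned mean was 9.49 UMIs in cut and 9.89 in normal members, against 4.68 and 4.06 UMIs in neutrophils and 10.4 and 9.15 UMIs in the other cells. The other cells were thus lower than members by median but near them by mean. The genes of the cytosolic ribosome held 388871 and 383929 CPM in cut and normal members, against 181679 and 166548 CPM in neutrophils and 272312 and 278308 CPM in macrophages. Immediate early and stress genes went the other way, with 0 higher and 29 lower of 44 tested in each library. Of all genes tested over the remaining cells, 13.6% and 10.3% were called higher and 30.5% and 32.7% lower in cut and normal members.

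Against neutrophils, 25.7% of genes were called higher and 27% lower in KBTGR cut members (52.7% in all), and 32.2% higher and 24% lower in KBTGR normal members (56.2% in all). The split moved with the scaling: 48.8% of calls were higher in KBTGR cut by CPM and 20.3% with TMM factors, and 57.3% and 23.2% in KBTGR normal, with the median of all genes at 0.05 by CPM and -0.70 by TMM in cut and at 0.30 and -0.66 in normal. Dendra2, the reporter by which the cells were sorted, had 515 CPM in 79 of 112 cut members and 729 CPM in 69 of 85 normal members, against 9302 and 10358 CPM in neutrophils and 748 and 809 CPM in macrophages. The droplets of the 2 libraries held 1785 and 6646 CPM of it. mpx was at 43.5 and 25.7 CPM in cut and normal members, close to the 50.5 and 40.1 CPM of the other cells and far under the 2308 and 3291 CPM of neutrophils. Members therefore carried Dendra2 above the other cells as a whole (280 and 188 CPM) without more mpx. The other cells with 1 rule gene held 513 CPM of Dendra2 in KBTGR cut, level with the members, and 287 CPM in KBTGR normal. The part of free RNA in the Dendra2 of members was not tested.

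More genes of the erythroid list were called higher than lower in members, but globins came from few cells. Over the remaining cells 9 of 11 tested erythroid genes were higher and 1 lower in KBTGR cut, and 6 of 12 higher and 1 lower in KBTGR normal. The shares of all genes called higher were 13.6% in cut and 10.3% in normal, and of those called lower 30.5% and 32.7%. hbae1.3, an embryonic alpha globin gene, had 3453 UMIs in 89 cut and 4001 UMIs in 71 normal members, of which 1 cell held 1133 and 2547. Globin UMIs were counted here over hbae1.1, hbae1.3, hbae3, hbae5, hbbe1.1, hbbe1.3, hbbe2 and hbbe3, with alas2, which is not a globin gene. This globin set left out hbbe1.2, which had 2363 UMIs in cut and 2306 UMIs in normal members. By the set, globins passed 1% of UMIs in 5 cut and 6 normal members. The top cell held 38.2% and 69.5% of the set's UMIs over the members of the cut and normal library. The median member had 4 and 6 UMIs of the set. Without the members over 1% globin, the log2 ratio of hbae1.3 over the remaining cells was -2.22 in KBTGR cut and -2.30 in KBTGR normal. rhag, the Rh-associated glycoprotein gene of the red cell membrane, was instead spread over 35 cut and 24 normal members, at 183 and 186 CPM, against 10.2 CPM in the other cells of each library. slc4a1a (band 3, the red cell anion exchanger) had 65 UMIs in 11 cut and 169 UMIs in 15 normal members. The erythroid regulators gata1a and klf1 had 6 and 12 UMIs and 3 and 5 UMIs in cut and normal members, and gata1b had 37 UMIs in 20 cut and 31 UMIs in 18 normal members. Of thrombocyte genes, mpl, the thrombopoietin receptor gene, had 23 UMIs in 21 cut and 33 UMIs in 25 normal members, and gp1bb, a platelet glycoprotein gene, 11 and 48 UMIs. Of lymphoid genes, ccr9a, a chemokine receptor gene of thymus-homing cells, had 718 and 653 CPM in cut and normal members but 1114 and 2246 CPM in neutrophils, and rag1, lck, zap70 and cd79b had 0 UMIs.

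The members fell into mainly 2 of the 21 clusters formed, without the rule genes, from all cells that were neither neutrophil nor macrophage. The first, called here the rhag cluster, held 70 of 203 members (34.5%) and only 3 other cells. The second, the ccr9a cluster, held 124 members (61.1%) and 78 cells that missed the rule. The remaining 9 members were scattered, with 5 in a globin-rich cluster. The split depended on the resolution of the clustering: at 0.4 in place of 0.8, 1 cluster held 190 of the 203 members and the next 9, so the 2 sets were not parted. The leading genes of the ccr9a cluster by fold were lens crystallins, 17270 of whose 17298 UMIs sat in 1 cell that was not a member. The share of members in the rhag cluster was 36.6% in KBTGR cut and 32.9% in KBTGR normal, and in the ccr9a cluster 59.8% (50.1 to 69.0%) in cut and 62.4% (51.2 to 72.6%) in normal, with overlapping intervals.

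The rule genes were shared unevenly between the clusters. blf was at 3226 and 3620 CPM in cut and normal members of the rhag cluster, against 431 and 408 CPM in those of the ccr9a cluster. znfl2a was at 610 and 741 CPM in the rhag cluster, against 51.7 and 59.2 CPM in the ccr9a cluster. tcf15 ran the other way, at 559 and 340 CPM in the rhag cluster, against 874 and 821 CPM in the ccr9a cluster. blf and znfl2a thus stood highest in the rhag cluster and tcf15 in the ccr9a cluster, in both libraries. lmo2 was at 93.8 and 136 CPM in the rhag cluster, against 84.0 and 89.6 CPM in the ccr9a cluster. myb was at 433 and 430 CPM in the rhag cluster, against 211 and 186 CPM in the ccr9a cluster. tal1 was at 206 and 265 CPM, against 28.0 and 22.4 CPM.

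**Figure D3:**
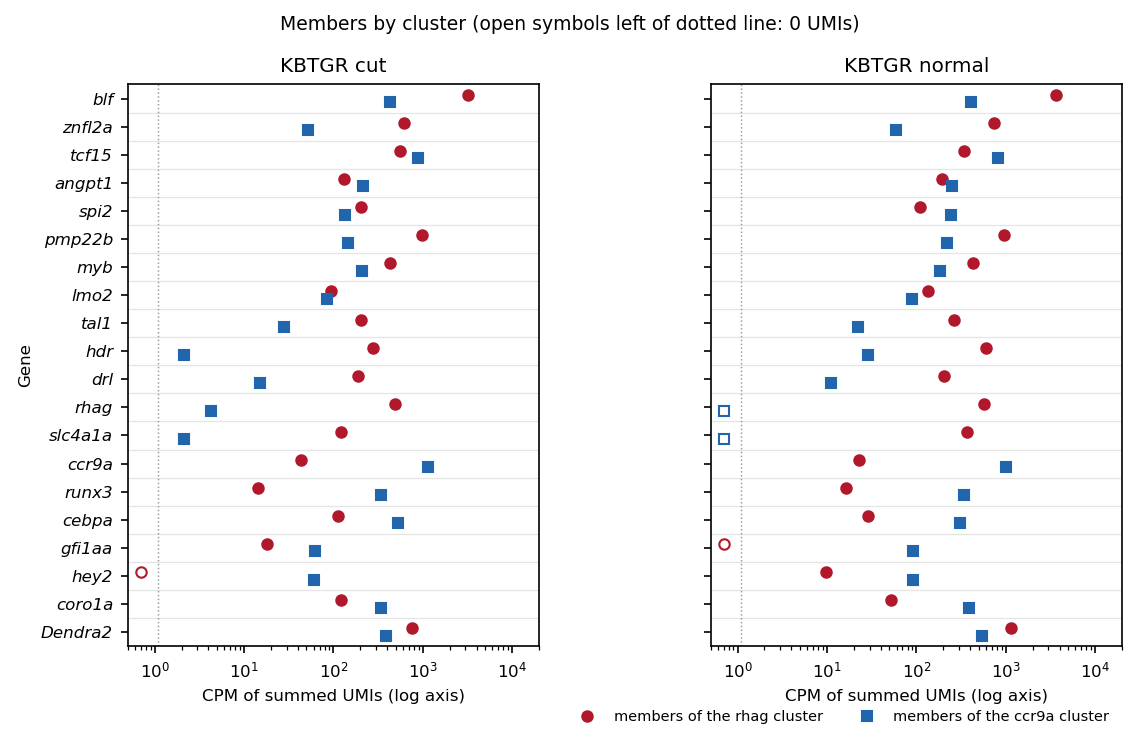
Level of 20 genes (x axis, CPM of summed UMIs on a log axis) in members of the rhag cluster (circles) and of the ccr9a cluster (squares), in KBTGR cut (left) and KBTGR normal (right), with open symbols left of the dotted line where no UMI was counted. blf, znfl2a, pmp22b, tal1, hdr, drl, rhag and slc4a1a lie higher in the rhag cluster, and ccr9a, runx3, cebpa, gfi1aa, hey2 and coro1a higher in the ccr9a cluster, in both libraries.

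Beside the rule genes, the rhag cluster was higher in the red cell membrane gene rhag and in hdr and drl. rhag was at 491 and 566 CPM in its cut and normal members, against 4.31 and 0 CPM in the ccr9a cluster. hdr was at 274 and 595 CPM, against 2.15 and 28.8 CPM, and drl in normal members at 204 CPM, against 11.2 CPM. The thrombocyte list was near the limit of detection. After thinning, 17.1% and 25.0% of cut and normal members of the rhag cluster had a UMI of it. This was 2.99% and 5.66% in the ccr9a cluster and 6.74% and 9.63% in neutrophils, and each median was 0 UMIs. The ccr9a cluster was higher than the rhag cluster in genes of leukocytes. For ccr9a itself, neutrophils were near this cluster in KBTGR cut and above it in KBTGR normal, by the levels given before. ccr9a was at 43.3 and 22.6 CPM in cut and normal members of the rhag cluster, against 1147 and 1005 CPM in those of the ccr9a cluster. runx3, a transcription factor gene of leukocytes, was at 14.4 and 16.2 CPM, against 338 and 346 CPM. cebpa, a myeloid factor gene, was at 112 and 29.1 CPM, against 532 and 307 CPM, and coro1a, an actin regulator of leukocytes, at 123 and 51.8 CPM, against 340 and 390 CPM. ackr3a, a scavenger receptor gene for Cxcl12, had 0 UMIs in the rhag cluster and 45.2 and 70.4 CPM in cut and normal members of the ccr9a cluster. plk2b, a polo-like kinase gene, was at 0 and 3.24 CPM in the rhag cluster, against 94.7 and 136 CPM in the ccr9a cluster. si:ch211-161c3.6, with no function known here, was at 152 and 22.6 CPM in the rhag cluster, against 611 and 706 CPM in the ccr9a cluster. S phase UMIs after thinning were found in 73.2% and 82.1% of cut and normal members of the rhag cluster and 80.6% and 83.0% of those of the ccr9a cluster. A score of S phase minus G2 and M phase genes was regressed out before clustering, so the nearness of these shares may in part be set by the method.

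Genes of the 2 sets were seldom abundant in the same cell. Of the 197 KBTGR members, 26 had at least 1 UMI of both sets. By a higher limit, 51 had at least 3 UMIs over slc4a1a, rhag, nt5c2l1 and spns2, 106 had at least 3 over ccr9a, runx3, cebpa and gfi1aa, 0 had both and 40 had neither. These genes were picked from the cluster values for their difference, so the split is a description of the same cells. By the same limit the counts were 27, 65, 0 and 20 members in KBTGR cut and 24, 41, 0 and 20 in KBTGR normal.

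**Figure D4:**
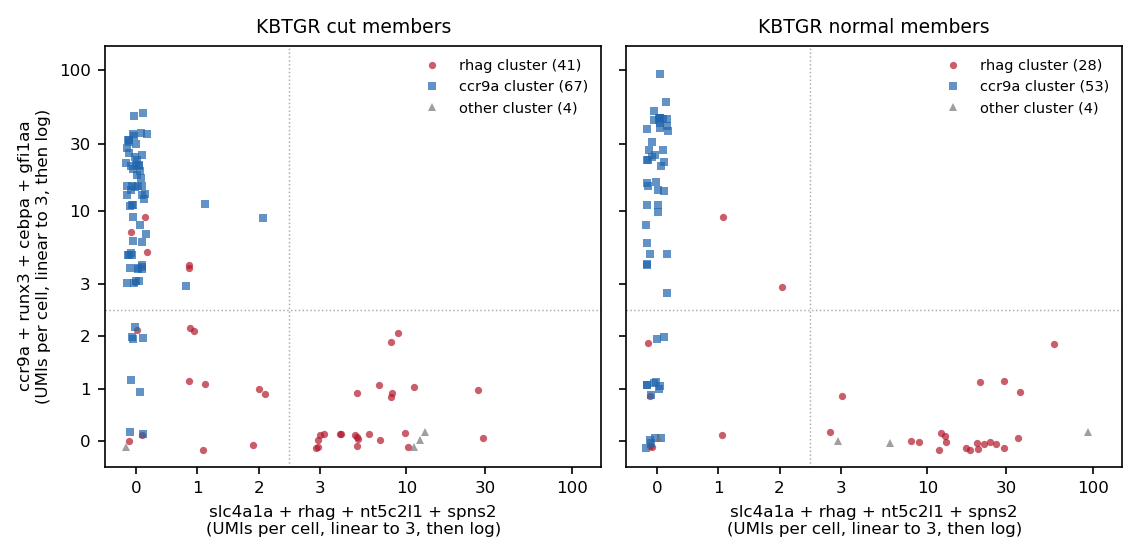
Each point is a member, with its UMIs over slc4a1a, rhag, nt5c2l1 and spns2 on the x axis and over ccr9a, runx3, cebpa and gfi1aa on the y axis (linear to 3, then log, with a small random offset), for KBTGR cut (left) and KBTGR normal (right). The dotted lines part members under 3 UMIs from those with 3 or more, and no member lies beyond both.

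The 6 members of the KBTRE libraries were looked at one by one. The 3 in KBTRE cut each had 3 of the 5 rule genes and lay in the ccr9a cluster, with 13, 17 and 5 UMIs of ccr9a and 1 UMI of myb each. Those in KBTRE normal were unlike each other. The first had 11634 UMIs of the globin set, of 16056 in all, and met the rule with 1 UMI each of blf and znfl2a. Another lay in the ccr9a cluster, with 5 UMIs of tcf15, 31 of Dendra2 and none of ccr9a. The last lay in the rhag cluster, with 24 UMIs of blf, 8 of znfl2a, 6 of myb and 12 of tal1. These 2 cells both had a doublet score of 0.202, and the others at most 0.0574.

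Whether the cut changed the members was asked within KBTGR, where each condition was 1 library. Of 3022 genes tested between cut and normal members, 36 were called higher (1.19%) and 56 lower (1.85%), 3.04% in all, with a median log2 ratio of -0.03. Since there was no replicate, these ratios compare 2 libraries and not the conditions. The ratios of the rule genes ran from 0.805 for angpt1 (0.645 to 1.00) to 1.16 for tcf15, which says little, as members of both libraries were chosen by UMIs of these genes. myb (1.12, 0.930 to 1.35) and rhag (0.983, 0.782 to 1.23) were not called either. None of 22 S phase, 26 G2 and M phase, 28 stress and 80 ribosomal genes was called, although the S phase list had a median log2 ratio of -0.39.

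**Figure D5:**
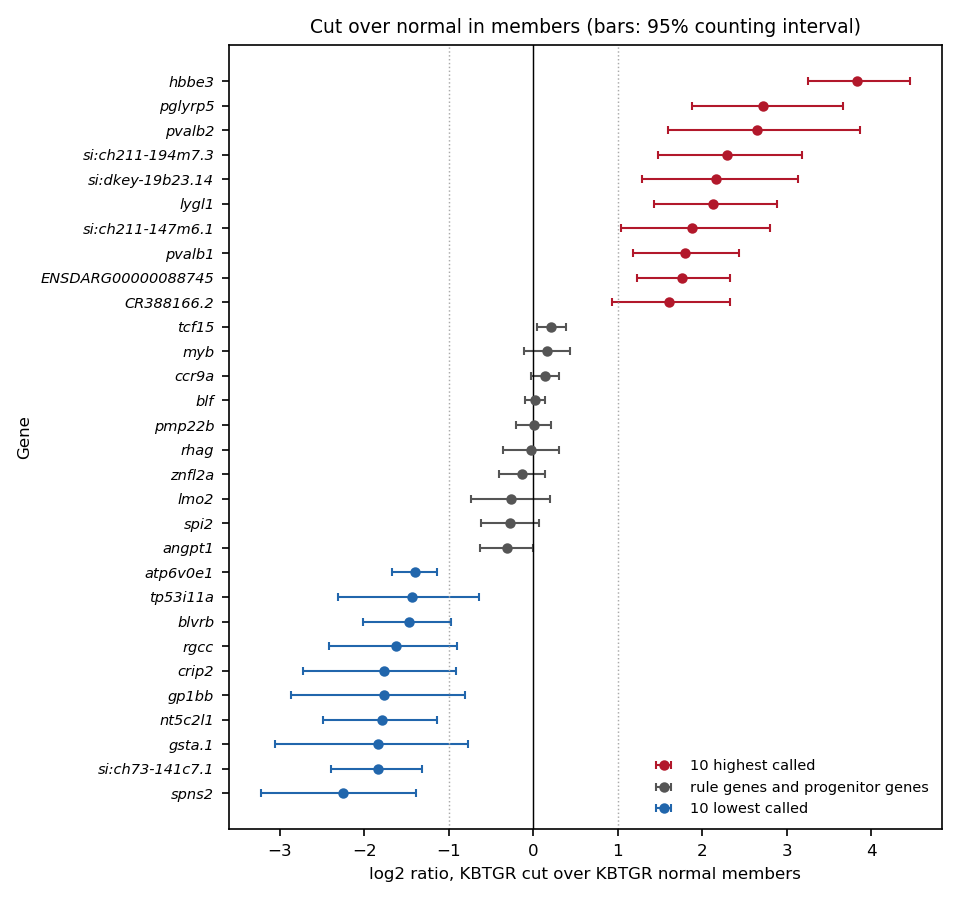
log2 ratio of KBTGR cut over KBTGR normal members (x axis) for the 10 highest and 10 lowest called genes and, between them, the rule genes with pmp22b, myb, lmo2, rhag and ccr9a, with 95% counting intervals. Dotted lines mark 2-fold, and all 10 genes of the middle set lie within them.

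The 10 genes with the highest ratio were led by the beta globin gene hbbe3, with 299 UMIs in 4 cut members and 27 UMIs in 1 normal member (14.2-fold, 9.55 to 21.9). pglyrp5, a peptidoglycan recognition protein gene, had 72 UMIs in 48 cut and 14 UMIs in 14 normal members (6.58-fold, 3.68 to 12.6). lygl1, a lysozyme gene, had 75 UMIs in 55 cut and 22 UMIs in 17 normal members (4.36-fold, 2.68 to 7.37). Both were abundant in macrophages, at 3128 and 1802 CPM for pglyrp5 and 4850 and 4260 CPM for lygl1 in cut and normal macrophages. The muscle genes pvalb2 and pvalb1, which encode parvalbumins, had 44 and 9 UMIs and 84 and 31 UMIs in cut and normal members. For these genes the droplets moved too, at 2071 and 499 CPM for pglyrp5, 2678 and 842 CPM for lygl1 and 2119 and 587 CPM for pvalb2 in the cut and normal library. After the free RNA of each library was subtracted by its lyz level, 6 of the 10 genes turned to the lower side and 2 were still past 2-fold. The others among the 10 were si:ch211-194m7.3, si:dkey-19b23.14, si:ch211-147m6.1, ENSDARG00000088745 and CR388166.2, with 46 to 106 UMIs in cut and 14 to 40 UMIs in normal members. Among called genes outside the 10, id2a, an inhibitor of helix-loop-helix factors, had 119 UMIs in 43 cut and 56 UMIs in 27 normal members (2.72-fold, 1.96 to 3.81), and hhex 58 UMIs in 41 cut and 30 UMIs in 19 normal members (2.48-fold, 1.57 to 3.98).

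Of 10 tested genes of the erythroid list, 2 were called higher and 3 lower in cut members, so red cell genes went both ways. The beta globin gene hbbe1.1, for one, was called higher, with 185 UMIs in cut and 83 UMIs in normal members, but was level (log2 ratio -0.0051) among members with 3 or more rule genes. Without the members over 1% globin, 38 genes were called higher and 41 lower over all genes. spns2, a sphingosine phosphate transporter gene, had 13 UMIs in 7 cut and 79 UMIs in 14 normal members (0.211-fold, 0.107 to 0.381). nt5c2l1, a nucleotidase gene, had 24 UMIs in 12 cut and 106 UMIs in 15 normal members (0.290-fold, 0.178 to 0.455). gp1bb (0.293-fold) and blvrb, a biliverdin reductase gene (0.360-fold), were lower as well. In the rhag cluster alone, spns2 was at 43.3 CPM in cut and 226 CPM in normal members and nt5c2l1 at 68.6 and 233 CPM. slc4a1a (0.492-fold, 0.364 to 0.659), hdr (0.488-fold, 0.372 to 0.634) and the heme synthesis genes urod (0.480-fold) and alad (0.466-fold) were also lower. Single cells weighed on some of these, as 1 normal member held 53 of the 169 UMIs of slc4a1a, 47 of 146 of blvrb and 83 of 85 of cahz, a red cell carbonic anhydrase gene. Without the members over 1% globin the log2 ratio of cahz was 1.89, and that of urod was 0.049 after thinning. crip2, rgcc, gsta.1, tp53i11a and si:ch73-141c7.1 completed the list with atp6v0e1, a proton pump subunit gene that was unlike the others in its spread. It had a UMI in 66 of 112 cut and in 81 of 85 normal members (153 and 518 UMIs, 0.378-fold, 0.314 to 0.454). Its level was 429 and 467 CPM in cut and normal neutrophils and 708 and 926 CPM in macrophages.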

How the data were processed

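Single cells were captured from 4 sorted pools with 10x Genomics 3' version 2 chemistry. The authors deposited unfiltered UMI counts per gene and barcode, made with Cell Ranger 7.1.0 per the file headers, and the submitters' processing notes name GRCz11 and Seurat. The matrices held 25433 genes and 7409098 to 17303744 UMIs per library. Here barcodes were filtered, grouped and summed by library and class with Python 3.11.15, NumPy 2.4.6, SciPy 1.17.1 and pandas 2.3.3. Ratios of summed counts have exact conditional 95% intervals, which cover counting error only, and 0.5 UMIs were added for log2 ratios over all genes. Clusters were formed with scanpy 1.11.5 and leidenalg 0.10.2 (2000 variable genes, 30 components, 20 neighbours, resolution 0.8) with the rule genes left out. A score of S phase minus G2 and M phase genes was regressed out first. TMM factors came from edgeR 4.0.16 in R 4.3.3. No doublets were removed, and a removal by score was an alternative. Calls were tried on simulated sums, in which 200 genes were changed by much more than 2-fold and counts held counting error only. Of the changed genes, 99.5% were recovered for cut over normal (3022 genes). For members over remaining cells, 94.9% (8326 genes) and 98.9% (9264 genes) were recovered in KBTGR cut and normal, with 1.55% and 1.36% of unchanged genes called. Smaller changes and uneven levels between cells, as for globins, were not simulated, so these rates do not cover them. Members and gene lists were chosen with earlier results of these data known. Named genes were the rule genes with pmp22b, the most abundant and called genes of each list (up to 5), the 20 highest and 10 lowest over the remaining cells, the 10 highest and lowest called in cut over normal, the genes most particular to members by share of cells, and Dendra2, mpx and lyz; exceptions are stated.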

Additional observations from a re-analysis of the deposited data

How the results depend on the processing

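Shares depended on the rule and on depth. In KBTGR cut the 3.83% became 3.02% with cells of at least 500 UMIs, 4.72% with at least 2000, 2.43% with 3 of the 5 genes, 6.70% with 1 and 1.71% after thinning. In KBTGR normal the 4.60% became 2.97% with 3 genes, 7.41% with 1 and 1.84% after thinning. With 1 gene the share was 0.675% in KBTRE cut and 1.09% in KBTRE normal, where 3 genes left 0%. The largest cluster share of 61.1% became 93.6% at resolution 0.4, where the rhag and ccr9a clusters merged, and 70.9% with 10 components.

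Thinning to 1000 UMIs, which leaves fewer counts, took the called genes over the remaining cells to 1247 of 3675 in KBTGR cut and 1007 of 3986 in KBTGR normal, over neutrophils to 1110 of 3081 and 837 of 3393, and between cut and normal to 12 of 92. With a minimum of 1 UMI per gene, 4956 of 17997 and 5995 of 17317 tested genes were called over neutrophils in KBTGR cut and normal. Between cut and normal it was 512 of 15105. A minimum of 10 UMIs gave 5148 of 10300 over neutrophils in KBTGR normal and 445 of 7554 between cut and normal.

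Some log2 ratios over the remaining cells changed sign. After thinning crip2 was at -1.08, spry2 at -0.11 and cahz at -0.32 in KBTGR cut, and spns2 at -0.45, tal1 at -0.20 and tcf3b at -0.23 in KBTGR normal. With 3 genes hbbe3 was at -4.61, hbae1.3 at -1.51, hbbe1.1 at -1.94 and cahz at -0.23 in KBTGR cut, and hbae1.3 at -0.66 and cahz at -3.72 in KBTGR normal. Without members over 1% globin, chosen after seeing the data, hbbe3 was at -4.18, blvrb at -0.35, hbae1.3 at -2.22, hbbe1.1 at -3.28 and cahz at -1.14 in KBTGR cut, and hbae1.3 at -2.30 and cahz at -3.57 in KBTGR normal. The remaining cells kept their own globin-rich cells in that setting. Between cut and normal, cahz was at 2.56 with 3 genes and 1.89 without the members over 1% globin. In this comparison hbbe1.1 was at -0.0051 with 3 genes and urod at 0.049 after thinning. After subtraction of free RNA by lyz, also chosen after seeing the data, the cut over normal ratios were -2.33 for pvalb2, -0.73 for si:ch211-194m7.3, -3.87 for si:dkey-19b23.14, -4.37 for lygl1, -3.94 for si:ch211-147m6.1 and -2.28 for pvalb1. The causes were not tested. The planned subtraction by erythroid genes could not be fitted, as members held more globin than droplets.

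No paired analysis was possible because each condition was 1 library and the labels give no replicate numbers shared between conditions. Leaving out a replicate was likewise not possible. Library, embryo pool and condition cannot be told apart, and genes under 50 UMIs were too shallow to compare.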
